A study of Homo sapiens with 8 samples.

Results

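A set of 47 neuronal and neuroendocrine genes was followed in DLD1 colon cancer cells. The genes were chosen by name as genes of neurons or of hormone-secreting cells, many of them bound by the repressor REST, and every non-control probe carrying such a gene name on the array was taken. All 47 genes were found, with 67 probes, of 36337 gene names and 50599 probes in all. A gene with several probes was represented by the probe with the highest mean level over the 8 arrays.

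DLD1 is an established human colorectal adenocarcinoma line, studied here for its many methylated CpG islands. Cells took up siCONT, a control siRNA, or siUHRF1-1 or siUHRF1-2, which target UHRF1. After 48 h they were exposed for 24 h to the histone deacetylase inhibitor trichostatin A (TSA, 300 nM) or to its ethanol solvent (mock). This gave 4 groups of 2 arrays: siCONT mock, siUHRF1 mock, siCONT TSA and siUHRF1 TSA. In a siUHRF1 group, array 1 held siUHRF1-1 and array 2 held siUHRF1-2, so its spread is that between 2 siRNAs, and all groups came from 1 cell line.

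Neurons and enteroendocrine cells, the scattered hormone-secreting cells of the gut lining, share a machinery for storing and releasing messengers in vesicles and dense-core granules. Other cell types keep many genes of this machinery silent. REST (RE1-silencing transcription factor) binds a DNA element called RE1 and recruits histone deacetylases, histone methyltransferases and the CoREST complex, and methylation of promoter CpG sites is another layer of silencing. UHRF1 recognises hemimethylated CpG sites and brings DNMT1 to newly copied DNA.

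The promoters below are shown because they belong to the genes on which the results turn. They are RefSeq sequences of 300 bases (250 before and 50 after the start, GRCh38.p14, 5′ to 3′ on the gene's strand). In the first 6, capitals mark CpG sites. UCHL1, CHGA, CEND1, DPYSL5 and SYT11 were called higher in siUHRF1 TSA than in every other group. The same held for NEFH, INA and STX1A, whose promoters are not shown, but with calls that depended on the processing. NEFH against siUHRF1 mock and INA against siCONT TSA each held in 9 of 19 other settings. STX1A against siCONT TSA held in 10 of 20. SYT11 and VGF were called higher with TSA alone, as was KCNH2, also not shown.
UCHL1, chr4:41256678-41256977 (+): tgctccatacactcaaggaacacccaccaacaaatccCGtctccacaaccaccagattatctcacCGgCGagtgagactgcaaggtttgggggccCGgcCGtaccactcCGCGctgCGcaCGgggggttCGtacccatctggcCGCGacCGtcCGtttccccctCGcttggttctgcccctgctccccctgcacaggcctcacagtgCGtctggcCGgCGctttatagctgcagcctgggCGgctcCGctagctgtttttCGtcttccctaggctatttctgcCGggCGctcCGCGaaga
CHGA, chr14:92922900-92923199 (+): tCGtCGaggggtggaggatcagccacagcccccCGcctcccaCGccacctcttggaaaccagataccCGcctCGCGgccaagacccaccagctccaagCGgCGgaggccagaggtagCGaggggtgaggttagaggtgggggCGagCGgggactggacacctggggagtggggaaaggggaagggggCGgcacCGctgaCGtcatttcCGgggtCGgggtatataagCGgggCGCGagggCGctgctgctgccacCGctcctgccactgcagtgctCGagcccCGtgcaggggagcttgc
CEND1, chr11:790041-790340 (-): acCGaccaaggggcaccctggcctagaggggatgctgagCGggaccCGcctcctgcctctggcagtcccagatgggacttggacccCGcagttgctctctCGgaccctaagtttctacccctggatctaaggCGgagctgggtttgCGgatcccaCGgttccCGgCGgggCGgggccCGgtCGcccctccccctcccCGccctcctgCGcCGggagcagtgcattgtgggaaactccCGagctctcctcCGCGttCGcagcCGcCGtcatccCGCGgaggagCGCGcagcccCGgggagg
DPYSL5, chr2:26847745-26848044 (+): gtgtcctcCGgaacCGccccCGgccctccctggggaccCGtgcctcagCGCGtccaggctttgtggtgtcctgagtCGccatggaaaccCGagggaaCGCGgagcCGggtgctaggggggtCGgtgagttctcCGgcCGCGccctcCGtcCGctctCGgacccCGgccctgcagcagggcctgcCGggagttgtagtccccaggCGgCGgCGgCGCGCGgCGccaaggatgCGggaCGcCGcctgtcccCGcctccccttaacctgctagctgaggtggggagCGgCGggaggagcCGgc
SYT11, chr1:155859317-155859616 (+): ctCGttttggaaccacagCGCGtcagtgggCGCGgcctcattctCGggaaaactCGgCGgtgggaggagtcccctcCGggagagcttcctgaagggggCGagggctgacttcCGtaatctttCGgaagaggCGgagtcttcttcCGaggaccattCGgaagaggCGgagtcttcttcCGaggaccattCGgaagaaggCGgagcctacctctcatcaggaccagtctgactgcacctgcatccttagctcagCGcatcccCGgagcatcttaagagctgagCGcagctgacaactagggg
VGF, chr7:101165520-101165819 (-): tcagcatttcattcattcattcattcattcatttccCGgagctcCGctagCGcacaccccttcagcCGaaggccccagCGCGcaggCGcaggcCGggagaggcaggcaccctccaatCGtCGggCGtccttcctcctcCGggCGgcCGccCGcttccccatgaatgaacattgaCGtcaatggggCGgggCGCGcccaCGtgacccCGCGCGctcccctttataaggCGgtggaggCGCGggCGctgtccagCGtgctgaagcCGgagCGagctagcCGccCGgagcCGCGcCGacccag

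In the last 2 promoters, capitals mark the half-sites of the RE1 element, TTCAGCACC and GGACAG, searched on both strands, and the half-sites do not overlap each other in these windows. Both genes, SYN1 and SCG3, encode vesicle or granule proteins and were on no array well above background.
SYN1, chrX:47619808-47620107 (-): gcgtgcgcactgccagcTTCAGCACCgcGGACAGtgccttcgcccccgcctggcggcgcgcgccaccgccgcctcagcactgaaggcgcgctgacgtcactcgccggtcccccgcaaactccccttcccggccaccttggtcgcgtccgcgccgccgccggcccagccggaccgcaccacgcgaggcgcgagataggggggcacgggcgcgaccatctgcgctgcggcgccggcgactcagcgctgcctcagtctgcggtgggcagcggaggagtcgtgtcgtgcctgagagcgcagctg
SCG3, chr15:51681253-51681552 (+): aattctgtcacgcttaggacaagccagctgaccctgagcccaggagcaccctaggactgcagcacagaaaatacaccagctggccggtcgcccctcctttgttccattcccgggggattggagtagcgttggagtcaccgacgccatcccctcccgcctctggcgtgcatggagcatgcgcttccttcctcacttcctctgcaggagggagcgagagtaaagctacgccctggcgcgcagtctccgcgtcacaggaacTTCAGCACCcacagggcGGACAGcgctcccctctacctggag

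The promoter table held 32 of the 47 genes, and TTCAGCACC occurred in 2 of these 32, SYN1 and SCG3, against 0.403% of 27305 promoters. GGACAG occurred in 10 of the 32 and in 20.5% of all promoters. CpG content was high in the members: the median promoter had 28.5 CpG sites and an observed-to-expected CpG ratio of 0.815, against 14 sites and 0.580 over all promoters. By detection, the median ratio was 0.883 in 11 members found on all arrays, 0.821 in 9 found on some arrays and 0.516 in 12 found on no array. These are descriptions of the sequence, and DNA methylation was not measured on these arrays.

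**Figure D1:**
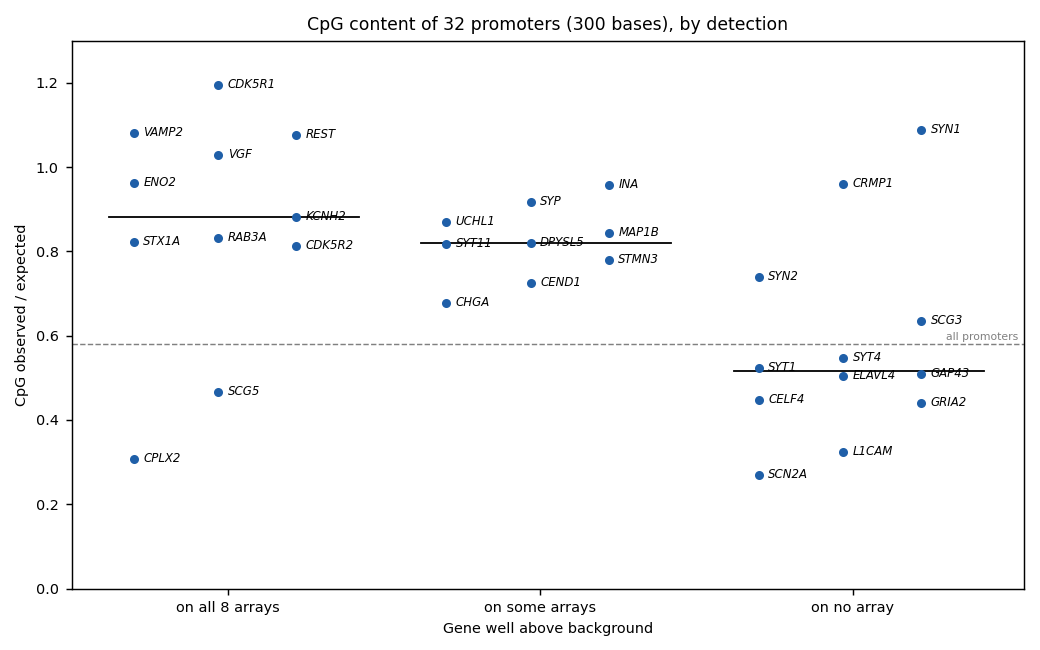
CpG observed-to-expected ratio of the 300-base promoters of 32 neuronal and neuroendocrine genes (vertical axis), by whether the gene was well above background on all 8 arrays, on some or on none. Points are genes, bars are medians (0.883, 0.821 and 0.516) and the dashed line is the median of all promoters (0.580).

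The labels were checked first on UHRF1. With the brighter UHRF1 probe, siUHRF1-1 and siUHRF1-2 left 31.8% and 24.8% of the siCONT signal under mock, and 16.7% and 11.1% under TSA. Colon epithelial identity was present: 16 of 20 colon epithelial genes were well above background on all arrays, with EPCAM at a level of 6.76 to 7.40 and CDH1 at 5.37 to 5.77. Of the list, CA1 and SLC26A3 were on no array well above background. On each array 43.3% to 48.0% of probes were well above background. All arrays were on 1 slide, mock in row 1 and TSA in row 2, so TSA and slide row cannot be told apart, and siCONT lay in columns 1 and 2 and siUHRF1 in columns 3 and 4, so siRNA and slide column cannot be told apart either. The siCONT arrays of an agent differed by an SD of 0.157 to 0.164 log2, against 0.422 to 0.489 for the siUHRF1 arrays, and nothing states that the siCONT arrays came from separate cultures. Each call of a member whose p is printed is therefore given also with the siCONT arrays counted as 1 sample. Not every call is printed with its values. REST, ENO2 and the counts over other gene lists are given with the siCONT arrays as 2 samples unless a second p is printed.

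A level below is the log2 intensity of a probe after its array's 75th percentile was subtracted, written for array 1 and then array 2. A gene was called when the limma adjusted p was below 0.05 and the change at least 2-fold. Of the 47 genes, 13 were well above background on all arrays, 12 on some and 22 on none. Both arrays detected 14 genes in siCONT mock (29.8% of the 47), 15 in siUHRF1 mock (31.9%), 16 in siCONT TSA (34.0%) and 21 in siUHRF1 TSA (44.7%). Over all gene names the shares were 43.8%, 45.2%, 46.8% and 47.9%. In a bulk sample, fewer cells expressing a gene and less RNA per cell cannot be told apart.

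**Figure D2:**
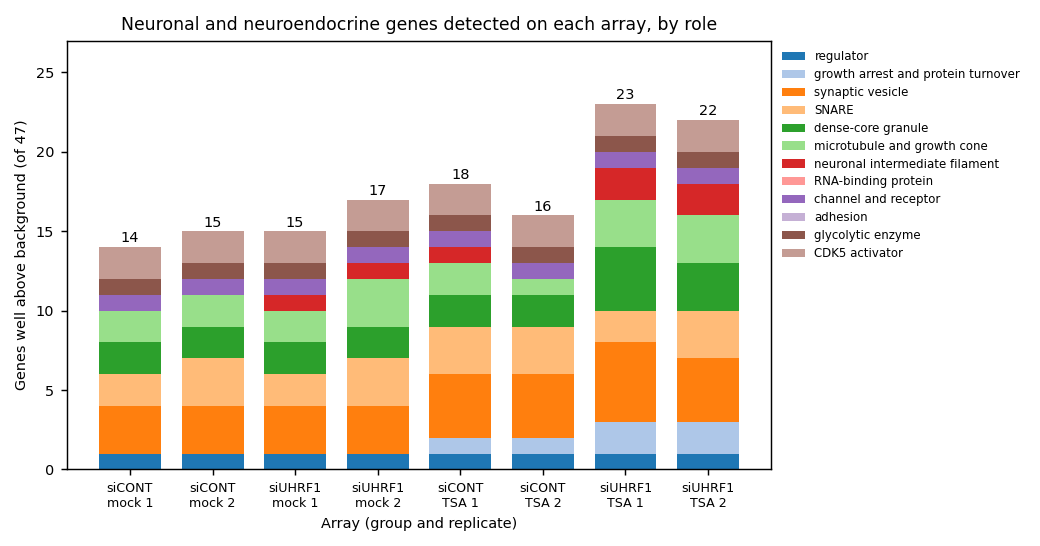
Number of the 47 genes with at least 1 probe well above background (vertical axis) on each array (horizontal axis), stacked by the role of the gene. The siCONT mock arrays held 14 and 15 genes and the siUHRF1 TSA arrays 23 and 22.

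The 22 genes on no array well above background made up 46.8% of the set, against 43.0% of all gene names. They were the synaptic vesicle genes SYN1, SYN2, SYN3, SYT1 and SYT4, the granule genes CHGB and SCG3, the growth cone genes STMN2, STMN4, CRMP1 and GAP43, the neurofilament genes NEFL and NEFM, the RNA-binding protein genes ELAVL3, ELAVL4 and CELF4, the receptor and sodium channel genes GRIA2, GRIN1, SCN2A and SCN3B, and the adhesion genes L1CAM and NCAM1. All 3 RNA-binding protein genes and both adhesion genes were thus undetected in every group. SYP and SCG2 passed on 1 array, that of siUHRF1-1 with TSA, and MAP1B on 1 array, that of siUHRF1-2 with mock. SNAP25 passed on 5 of 8 arrays and was called in none of the comparisons in which it was tested.

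REST itself, the repressor, was well above background on all arrays. It measured 0.49 and 0.36 in siCONT mock, -0.15 and 0.58 in siUHRF1 mock, 0.30 and 0.23 in siCONT TSA, and 0.36 and 0.22 in siUHRF1 TSA. The siUHRF1 mock arrays held both the lowest and the highest value and spanned all others. UHRF1 depletion changed its level by -0.21 ± 0.24 (SE, adjusted p = 0.574), TSA by -0.16 ± 0.24 (0.615) and both together by -0.13 ± 0.24 (0.673), a change that was 0.11 when the 75th percentile was taken over detected probes alone. REST was called in none of the 6 comparisons.

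The cofactors of REST were present throughout. All 24 genes of a list of REST corepressor complex members were well above background on all arrays. After UHRF1 depletion plus TSA, 0 of the 24 were called higher and 4 lower. Among all genes detected on both siCONT mock arrays, 8.10% rose and 12.4% fell. The median change of the 24 was -0.42 against -0.14 over all genes tested. Among the 4 called lower were EHMT2, a histone H3 lysine 9 methyltransferase (change -1.54), and the scaffold gene SIN3A (-1.005). With the siCONT arrays as 1 sample EHMT2 kept its call (adjusted p = 0.0225), whereas SIN3A (0.0648) did not. TSA alone lowered 3 of the 24, against 9.1% of all genes so detected, and EHMT2 fell by 1.54 with TSA alone as well.

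UCHL1 passed the background only in siUHRF1 TSA. UCHL1 is a ubiquitin hydrolase that is abundant in neurons and neuroendocrine cells, measured here with a probe at chr4:41270340-41270399 (hg19). It measured -5.70 and -5.75 in siCONT mock, -6.07 and -5.77 in siUHRF1 mock, -6.13 and -6.02 in siCONT TSA, and 0.70 and 0.51 in siUHRF1 TSA. It was not well above background on any of the first 6 arrays and was so on both of the last. The signal in siUHRF1 TSA was at least 16.0-fold higher than in siCONT mock (adjusted p = 2.56e-05), at least 18.4-fold higher than in siUHRF1 mock (3.00e-05) and at least 20.3-fold higher than in siCONT TSA (6.45e-05). These bounds set a dim group at the lowest level that passed as well above background on its arrays, so they are smaller than the fitted changes. With the siCONT arrays as 1 sample the adjusted p was 0.00431, 0.00196 and 0.0196.

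CEND1, a gene linked to cell cycle exit and neuronal differentiation, was highest in siUHRF1 TSA. Its probe lies at chr11:787111-787170 (hg19, minus strand). CEND1 measured -3.11 and -4.55 in siCONT mock, -3.65 and -3.16 in siUHRF1 mock, -2.31 and -2.56 in siCONT TSA, and 2.23 and 1.79 in siUHRF1 TSA. It was well above background only on the 4 TSA arrays. With TSA alone its signal was at least 1.78-fold that of siCONT mock, a difference that missed the threshold (adjusted p = 0.0565). Addition of UHRF1 depletion to TSA raised it 21.8-fold (log2 change 4.45 ± 0.47, adjusted p = 0.00514, and 0.0313 with siCONT as 1 sample), and siUHRF1 TSA stood at least 38.7-fold above siCONT mock (0.000372 and 0.00529).

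Among the dense-core granule genes, CHGA, VGF and SCG5 each followed a pattern of their own. CHGA encodes chromogranin A, a standard marker of neuroendocrine cells. It measured -5.61 and -5.67 in siCONT mock, -5.99 and -5.70 in siUHRF1 mock, -5.11 and -5.95 in siCONT TSA, and -0.07 and -1.01 in siUHRF1 TSA, the 2 arrays on which it was well above background. The signal was at least 7.25-fold higher than in siCONT mock (adjusted p = 0.000299), at least 8.35-fold higher than in siUHRF1 mock (0.000341) and at least 9.19-fold higher than in siCONT TSA (0.00234). With the siCONT arrays as 1 sample these were 0.00663, 0.00270 and 0.0341.

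VGF, which encodes a precursor of secreted peptides, was bright everywhere and rose with TSA whatever the siRNA. It measured 3.01 and 2.99 in siCONT mock, 3.01 and 2.47 in siUHRF1 mock, 7.17 and 7.08 in siCONT TSA, and 8.51 and 7.16 in siUHRF1 TSA. The TSA and mock arrays did not overlap. The change with TSA was 4.12 ± 0.43 in siCONT (adjusted p = 0.00141, 0.0649 with siCONT as 1 sample) and 5.09 ± 0.43 in UHRF1-depleted cells (0.000558 and 0.00464). UHRF1 depletion under TSA added 0.71 ± 0.43 (0.286), with overlapping groups.

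SCG5, a chaperone of prohormone processing, followed the siRNA. It measured 1.31 and 1.33 in siCONT mock, 2.50 and 2.94 in siUHRF1 mock, 0.45 and 0.50 in siCONT TSA, and 2.00 and 1.77 in siUHRF1 TSA. UHRF1 depletion raised it by 1.40 ± 0.17 under mock (adjusted p = 0.0132) and by 1.41 ± 0.17 under TSA (0.00738), but neither call held with siCONT as 1 sample (0.311 and 0.165). With TSA alone SCG5 changed by -0.84 ± 0.17, short of the 2-fold minimum. The other 3 granule genes, CHGB, SCG2 and SCG3, were not tested.

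**Figure D3:**
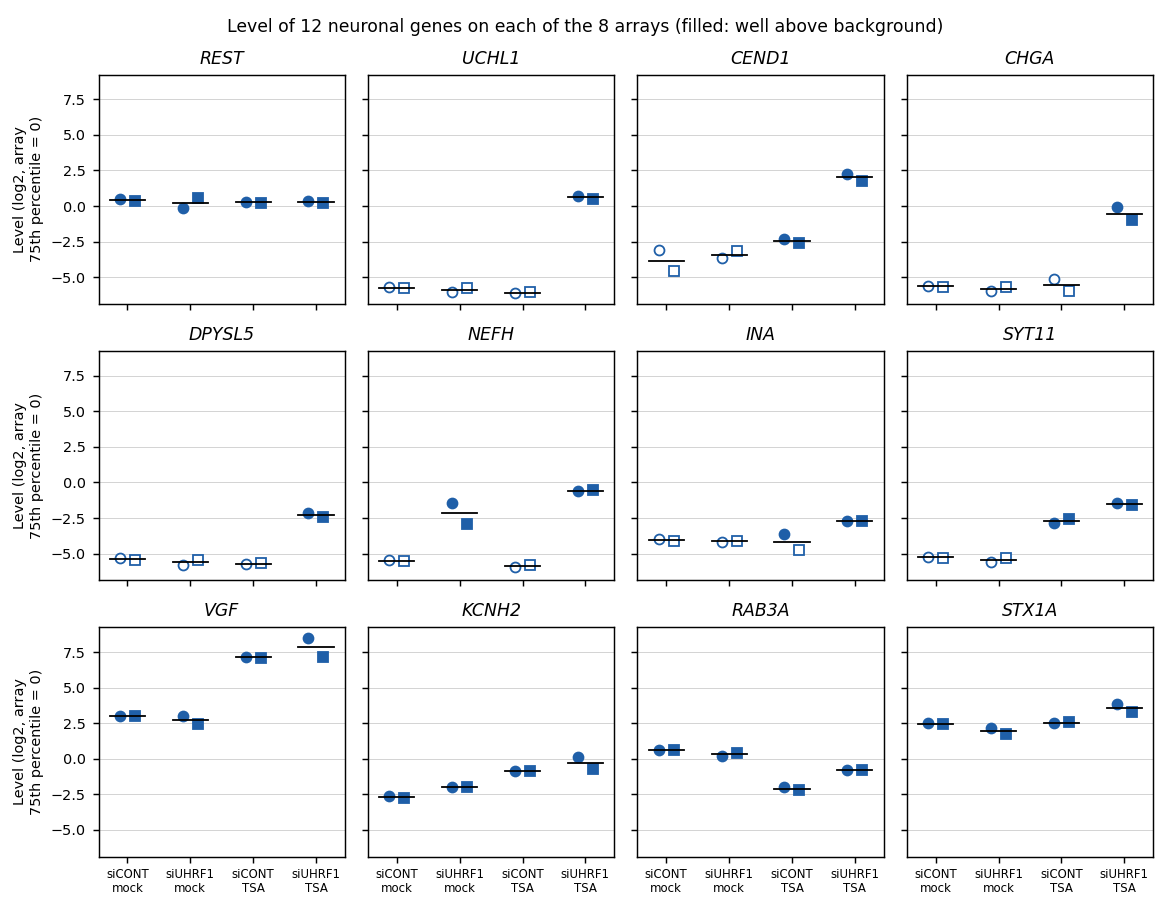
Levels (log2, each array's 75th percentile set to 0) of 12 genes on the 8 arrays, by group. Circles are array 1 and squares array 2, filled where the probe was well above background, and bars are group means. UCHL1, CHGA and DPYSL5 were filled only in siUHRF1 TSA, NEFH in both siUHRF1 groups, and CEND1 and SYT11 in both TSA groups.

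Of the 4 neurofilament and related filament genes, NEFH was the 1 tested for UHRF1 depletion under mock, and was called. NEFH, the heavy neurofilament chain, measured -5.46 and -5.52 in siCONT mock, -1.46 and -2.89 in siUHRF1 mock, -5.91 and -5.82 in siCONT TSA, and -0.63 and -0.51 in siUHRF1 TSA. By its brighter probe, which gave these levels, NEFH was well above background on all 4 siUHRF1 arrays and on no siCONT array. The signal was at least 2.33-fold higher in siUHRF1 mock than in siCONT mock (adjusted p = 0.0136, 0.208 with siCONT as 1 sample), at least 7.09-fold higher in siUHRF1 TSA than in siCONT mock (0.000458 and 0.0111) and at least 8.98-fold higher than in siCONT TSA (0.00251 and 0.0438). TSA raised NEFH further in depleted cells, by 1.60 ± 0.42 (0.0266 and 0.0790), a call held in 9 of 19 other settings. The call for UHRF1 depletion under mock was lost without either siCONT mock array. The other NEFH probe was on no array well above background. Its group means were -4.65 in siCONT mock, -4.53 in siUHRF1 mock, -4.96 in siCONT TSA and -4.35 in siUHRF1 TSA.

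INA, encoding the filament protein alpha-internexin, measured -3.98 and -4.10 in siCONT mock, -4.17 and -4.12 in siUHRF1 mock, -3.61 and -4.73 in siCONT TSA, and -2.74 and -2.68 in siUHRF1 TSA. INA passed as well above background in both siUHRF1 TSA arrays and in array 1 of siCONT TSA. The signal in siUHRF1 TSA was at least 1.61-fold higher than in siCONT mock (adjusted p = 0.0203, 0.0299 with siCONT as 1 sample) and at least 1.85-fold higher than in siUHRF1 mock (0.0184 and 0.0126). Against siCONT TSA the change was 1.46 ± 0.34 (0.0352), a call lost with siCONT as 1 sample (0.103) and held in 9 of 19 other settings. INA lost the first pair of calls when any 1 of the 4 arrays in the comparison was left out.

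Of the microtubule and growth cone genes, DPYSL5 was called for the combination. DPYSL5, of the collapsin response mediator protein family, measured -5.31 and -5.42 in siCONT mock, -5.77 and -5.48 in siUHRF1 mock, -5.73 and -5.69 in siCONT TSA, and -2.13 and -2.41 in siUHRF1 TSA, where alone it was well above background. The bounds were at least 2.19-fold over siCONT mock (adjusted p = 0.000125), 2.52-fold over siUHRF1 mock (0.00012) and 2.77-fold over siCONT TSA (0.000619), and 0.00748, 0.00282 and 0.0341 with siCONT as 1 sample. Its other probe to pass did so on 1 array, that of siUHRF1-1 with TSA.

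MAPT, encoding the microtubule-associated protein tau, was detected on all arrays by both of its bright probes. The brighter measured -0.05 and -0.15 in siCONT mock, -0.21 and 0.01 in siUHRF1 mock, -0.70 and -0.67 in siCONT TSA, and 1.02 and 0.60 in siUHRF1 TSA. Its change for UHRF1 depletion under TSA was 1.49 ± 0.17 (adjusted p = 0.00615, 0.145 with siCONT as 1 sample), and for the combination it was 0.91 ± 0.17, below the 2-fold minimum. The dimmer probe gave 2.16 ± 0.20 (0.00377 and 0.0839) and 1.74 ± 0.20 (0.00117 and 0.0304), so the probes differed on whether the combination passed. STMN3, a stathmin family gene, fell by 1.11 with TSA in depleted cells (0.0378, 0.0811 with siCONT as 1 sample) and changed by -0.28 ± 0.33 for the combination.

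Synaptic vesicle genes moved in both directions. SYT11, a synaptotagmin, measured -5.21 and -5.28 in siCONT mock, -5.61 and -5.31 in siUHRF1 mock, -2.84 and -2.57 in siCONT TSA, and -1.45 and -1.57 in siUHRF1 TSA. It was well above background on the 4 TSA arrays and on none of the mock arrays. TSA gave at least 1.61-fold higher signal in siCONT (adjusted p = 0.000412, 0.0462 with siCONT as 1 sample) and at least 4.26-fold in depleted cells (7.73e-05 and 0.00224). Within TSA, UHRF1 depletion raised SYT11 by 1.20 ± 0.16 (0.00875), a call lost with siCONT as 1 sample (0.180) and without array 1 of siCONT TSA.

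RAB3A was the member that fell for the combination. RAB3A is a small GTPase of vesicle release and measured 0.63 and 0.59 in siCONT mock, 0.21 and 0.42 in siUHRF1 mock, -1.98 and -2.23 in siCONT TSA, and -0.77 and -0.81 in siUHRF1 TSA. With TSA it fell by 2.71 in siCONT (SE 0.14, adjusted p = 0.000298, 0.0397 with siCONT as 1 sample) and by 1.11 in depleted cells (0.00203 and 0.0270). For the combination against siCONT mock it fell by 1.40 (0.000708 and 0.0292). Within TSA, depleted cells stood 1.31 ± 0.14 above siCONT (0.00516 and 0.140).

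CPLX1, a complexin that clamps vesicle fusion, measured 1.20 and 1.29 in siCONT mock, 0.16 and 1.14 in siUHRF1 mock, 0.46 and 0.55 in siCONT TSA, and 1.87 and 1.84 in siUHRF1 TSA. It was called higher in siUHRF1 TSA than in siCONT TSA (1.35 ± 0.30, adjusted p = 0.0317) and than in siUHRF1 mock (1.21 ± 0.30, 0.0219), and lost both calls with siCONT as 1 sample (0.294 and 0.0786). For the combination against siCONT mock CPLX1 changed by 0.62 ± 0.30 (0.139). CPLX2 showed among the smallest changes, -0.23 ± 0.19 for the combination (0.369).

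Of the SNARE genes, which encode the proteins that fuse vesicles with the membrane, STX1A was the one called. It measured 2.51 and 2.45 in siCONT mock, 2.13 and 1.75 in siUHRF1 mock, 2.49 and 2.58 in siCONT TSA, and 3.82 and 3.27 in siUHRF1 TSA. It was higher in siUHRF1 TSA than in siUHRF1 mock by 1.60 ± 0.22 (adjusted p = 0.00270, 0.0228 with siCONT as 1 sample). Against siCONT mock the difference was 1.07 ± 0.22 (0.00943) and against siCONT TSA 1.01 ± 0.22 (0.0298), and both calls were lost with siCONT as 1 sample (0.109 and 0.323). The other STX1A probe passed as well above background on 1 array, that of siUHRF1-1 with TSA. Its group means were -5.39 in siCONT mock, -5.49 in siUHRF1 mock, -3.84 in siCONT TSA and -3.18 in siUHRF1 TSA. VAMP2 changed by -0.22 ± 0.21 for the combination (0.420).

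KCNH2, a voltage-gated potassium channel gene, was the detected member of the channel and receptor group. It measured -2.63 and -2.76 in siCONT mock, -1.96 and -1.95 in siUHRF1 mock, -0.88 and -0.85 in siCONT TSA, and 0.14 and -0.71 in siUHRF1 TSA. The 4 TSA arrays lay above the 4 mock arrays. TSA raised KCNH2 by 1.83 ± 0.27 in siCONT (adjusted p = 0.00400, 0.127 with siCONT as 1 sample) and by 1.67 ± 0.27 in depleted cells (0.00464 and 0.0283), and the combination by 2.41 ± 0.27 (0.00102 and 0.0225). Its other probe, also detected on all arrays, gave 0.36 ± 0.25 for TSA in siCONT (0.284), 1.24 ± 0.25 for TSA in depleted cells (0.0107 and 0.0392) and 1.23 ± 0.25 for the combination (0.00932 and 0.0739), so the probes differed on whether TSA alone passed.

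ENO2, the neuron-specific enolase gene, went the other way in part. It measured 2.60 and 2.60 in siCONT mock, 1.85 and -0.84 in siUHRF1 mock, 0.52 and 0.52 in siCONT TSA, and 1.13 and 0.54 in siUHRF1 TSA. Both siRNAs lay below siCONT mock, but siUHRF1-2 far lower than siUHRF1-1. UHRF1 depletion changed ENO2 by -2.10 ± 0.79 (adjusted p = 0.139), TSA by -2.08 ± 0.79 (0.0808) and the combination by -1.76 ± 0.79 (0.113), and none of these was called. Without array 1 of siUHRF1 mock, the change for UHRF1 depletion (-3.44) was called, and without either one of the siUHRF1 mock arrays those for TSA (-2.08) and the combination (-1.76) were called. The CDK5 activator genes CDK5R1 and CDK5R2 were on all arrays and were not called in any comparison.

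**Figure D4:**
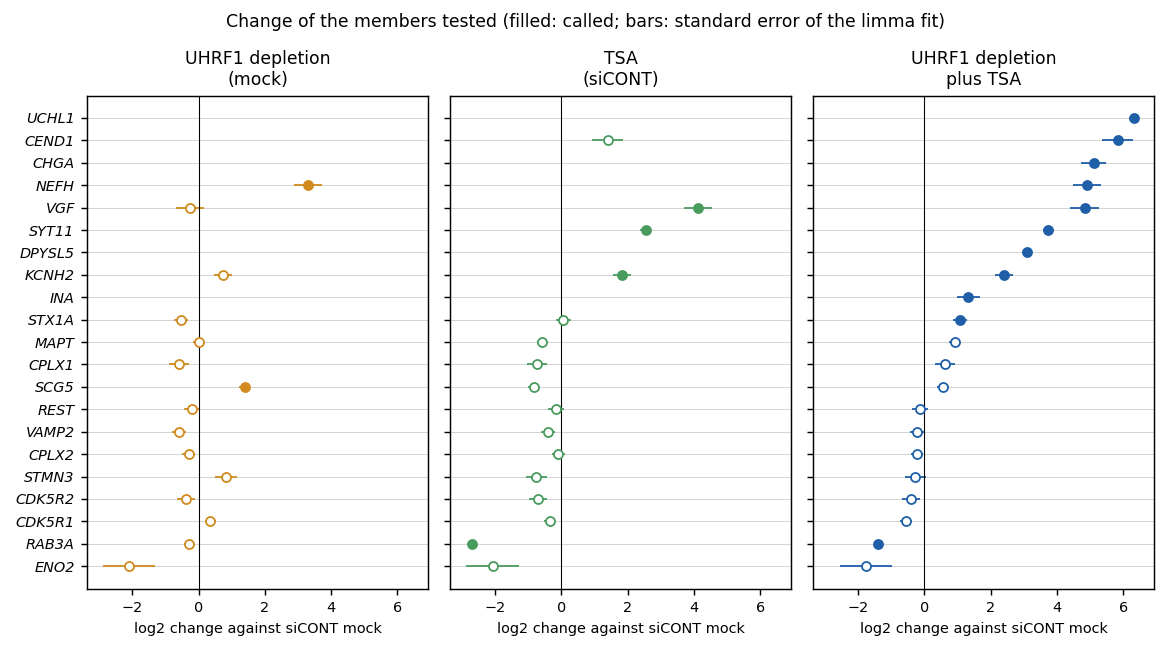
Change from siCONT mock (log2, horizontal axis) of the 21 genes tested for UHRF1 depletion plus TSA, shown for UHRF1 depletion, TSA, and both together. Bars are standard errors of the limma fit, filled points were called, and a gene without a point was not tested in that comparison. The combination had 10 called genes above 0 and 1 below, RAB3A.

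Counts of called members were set beside those of all gene names tested. For UHRF1 depletion under mock, 2 of 15 tested members were called higher and 0 lower, against 3.3% and 0.9% of 16781 genes. Of the 2, NEFH was not detected on both siCONT mock arrays, and 28% of all such genes rose. Of the 14 members detected there, 1 rose (SCG5), against 1.94% of all genes so detected. For TSA in siCONT, 3 of 17 were higher and 1 lower, against 10.4% and 8.32% of 17402. Of the 3, SYT11 was not detected on both siCONT mock arrays, and 54.7% of all such genes rose. Of the 14 members detected there, 2 rose and 1 fell, against 6.25% and 9.1% of all genes so detected. For UHRF1 depletion plus TSA, 10 of 21 were higher and 1 lower, against 15.3% and 11.1% of 17866. Scaling moved the balance over all genes: of those called for the combination 58.0% were higher, against 33.0% when each array was centred on its median and 72.6% when the 75th percentile was taken over detected probes, and the members were then 8 higher and 1 lower, and 11 higher and 1 lower.

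A member that passed the detection filter only through the siUHRF1 TSA arrays entered the test through the group in which it was high. Of the 10 called higher, 7 were of this kind: UCHL1, CEND1, CHGA, NEFH, SYT11, DPYSL5 and INA. Among all genes tested but not detected on both siCONT mock arrays, 74.2% rose, so these 7 calls were favoured by the filter. Of the 14 members already detected on both siCONT mock arrays, 3 rose (KCNH2, STX1A and VGF) and RAB3A fell. Among all genes so detected 8.10% rose and 12.4% fell. The median change of the 21 tested members was 0.91 against -0.14 over all genes tested, and over all 47 members without any filter it was 0.07 against -0.17.

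Under TSA, UHRF1 depletion raised 12 of 22 tested members and lowered 0, against 5.91% and 2.88% of 17946 genes. Of the 12, 5 (CHGA, DPYSL5, INA, NEFH and UCHL1) entered through the group in which they were high, where 50.2% of all genes rose. Of the 16 members already detected on both siCONT TSA arrays, 7 rose: CEND1, CPLX1, MAPT, RAB3A, SCG5, STX1A and SYT11. Among all genes so detected 3.41% rose. Of these 7 members, only CEND1 kept its call with siCONT as 1 sample. CPLX1, RAB3A, STX1A and SYT11 lost theirs when each array was centred on its median. In depleted cells, TSA raised 11 of 21 members and lowered 2, RAB3A and STMN3, against 12.2% and 9.07% of 17976 genes. Of the 11, 6 (CEND1, CHGA, DPYSL5, INA, SYT11 and UCHL1) entered through the group in which they were high, where 66.2% of all genes rose. Of the 15 already detected on both siUHRF1 mock arrays 5 rose and 2 fell, against 7.1% and 9.93% of all genes. With the 75th percentile over detected probes 12 rose and 0 fell, RAB3A then changing by -0.95. These comparisons share arrays, so they are not independent of each other.

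The effect of UHRF1 depletion under TSA was compared directly with that under mock (interaction). The depletions compared differed in depth. UHRF1 measured 1.98 and 2.01 in siCONT mock, 0.34 and -0.02 in siUHRF1 mock, 1.04 and 1.01 in siCONT TSA, and -1.555 and -2.14 in siUHRF1 TSA. Whether this bears on the interaction was not tested. The effect was larger under TSA for 8 of 22 tested members and smaller for 0, against 3.01% and 2.03% of 18413 genes. The 8 were UCHL1, CHGA, CEND1, DPYSL5, RAB3A, STX1A, MAPT and SYT11. UCHL1, CHGA and DPYSL5 were well above background only in siUHRF1 TSA, and CEND1 and SYT11 only on TSA arrays. These 5 thus entered the test through groups in which they were high, while RAB3A, STX1A and MAPT were detected on all arrays. The share over all genes was not split by detection for the interaction. With the siCONT arrays as 1 sample, limma called 0 members for UHRF1 depletion under mock (2 had an unadjusted p below 0.05) and 0 for the interaction (10 below 0.05). It called 2 members for TSA in siCONT, 10 for the combination, 10 for TSA in depleted cells and, between the TSA groups, 5. With the array number as a replicate block within each siRNA arm, which in the siUHRF1 arm is the siRNA, limma called 0 members for the interaction (14 below an unadjusted 0.05), and CPLX1 between the TSA groups (adjusted p = 0.0537) and STMN3 for TSA in depleted cells (0.0787) lost their calls. With siCONT as 1 sample, the 5 between the TSA groups were CEND1, CHGA, DPYSL5, NEFH and UCHL1. All but CEND1 had entered that test through the group in which they were high.

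The members were set beside other genes of the same cell types. Of 26 neuronal and neuroendocrine transcription factors, 19 were on no array well above background, among them NEUROD1 and INSM1. Of the 5 tested for the combination, MYT1, a zinc finger factor of neural cells, was called higher and 0 lower. Over all genes tested these shares were 15.3% and 11.1%. MYT1 was below background on the siCONT mock arrays and entered through the group in which it was high, where 74.2% of all genes rose. Of the 4 factors already detected on both siCONT mock arrays 0 were called. MYT1 measured -5.50 and -5.57 in siCONT mock, -2.97 and -3.67 in siUHRF1 mock, -5.93 and -5.85 in siCONT TSA, and -2.54 and -1.88 in siUHRF1 TSA, at least 2.27-fold over siCONT mock (adjusted p = 0.000510, 0.0131 with siCONT as 1 sample).

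Gut hormone genes gave large changes. Of 21 enteroendocrine hormone and enzyme genes, 7 were tested for the combination, 5 were called higher and 0 lower, against 15.3% and 11.1% of all genes tested. CCK, NTS and PPY were below background on both siCONT mock arrays, where 74.2% of all genes that entered the test were called higher, and of the 4 detected there GAST and CPE rose. NTS (neurotensin) measured -5.50 and -5.35 in siCONT mock, -5.91 and -5.61 in siUHRF1 mock, 0.92 and 1.08 in siCONT TSA, and 1.53 and 4.90 in siUHRF1 TSA. CCK (cholecystokinin) measured -5.31 and -5.38, -4.22 and -5.41, -4.19 and -5.00, and 3.38 and 0.68 in the same order. NTS was well above background on all TSA arrays and CCK only on those of siUHRF1 TSA. The signal in siUHRF1 TSA over siCONT mock was at least 97.6-fold for NTS, 43.0-fold for CCK and 20.6-fold for PPY (pancreatic polypeptide), while GAST (gastrin) rose by 5.12 ± 0.58. The siUHRF1 TSA arrays differed widely: array 1 and array 2 alone gave bounds of 30.3-fold and 313.9-fold for NTS, 109.5-fold and 16.9-fold for CCK, and 37.6-fold and 11.3-fold for PPY. All 4 passed with siCONT as 1 sample (adjusted p = 0.0169, 0.0182, 0.0265 and 0.0186). PYY, TPH1, PCSK1 and SCT were among the 12 genes of the list on no array.

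Of 40 other neuronal genes, 17 were tested for the combination, 7 were called higher and 0 lower, against 15.3% and 11.1% of all genes tested. Of these 7, 4 were well above background on the siUHRF1 TSA arrays and on no other array, and so entered the test through the group in which they were high. Their signal over siCONT mock was at least 3.11-fold for PNMA2, 3.15-fold for THY1, 1.45-fold for the axonal kinesin gene KIF1A and 1.41-fold for the nicotinic receptor subunit gene CHRNB2, and the KIF1A bound was 0.938 with array 2 of siUHRF1 TSA alone. With siCONT as 1 sample all 4 kept their calls (adjusted p = 0.00529, 0.00710, 0.0301 and 0.0110). The other 3, MAP2 and TUBB3 among them, were part of 13 genes of the list already detected on both siCONT mock arrays, where 8.10% of all genes rose. The summed level of the 40 genes was 6.42 to 6.45 in siCONT mock, 6.38 to 6.52 in siUHRF1 mock, 7.08 in both siCONT TSA arrays and 7.31 to 7.37 in siUHRF1 TSA.

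Markers of other cells were followed beside these. Of 10 glial markers, 8, including S100B, SOX10 and GFAP, were on no array, and ERBB3, also an epithelial gene, fell by 2.05 for the combination. Of 20 colon epithelial genes, those already detected in the group compared against were set beside all genes so detected. For UHRF1 depletion under mock 4 of 16 rose and 0 fell, against 1.94% and 0.949%. FABP1 was not detected on both siCONT mock arrays and was called higher, as were 28% of such genes. For TSA in siCONT 2 of 16 rose and 4 fell, against 6.25% and 9.1%. Between the TSA groups 2 of 16 rose and 0 fell, against 3.41% and 3.04%. For TSA in depleted cells 1 of 17 rose and 7 fell, against 7.1% and 9.93%. For the combination 4 of 16 rose and 3 fell, against 8.10% and 12.4%, led by GPA33 (-4.16), TFF3 (-2.54), MUC2 (2.05) and CA2 (2.00). The summed level of the 20 genes was 10.8 to 11.1 on every array. Of 14 stromal and blood markers on the array, 6 were tested for the combination. COL1A1 and VWF were called higher and 0 lower, against 15.3% and 11.1% of all genes tested. Neither was well above background on a siCONT mock array, and 74.2% of all genes not detected on both of these were called higher. Their signal in siUHRF1 TSA was at least 6.66-fold (COL1A1) and 15.0-fold (VWF) that of siCONT mock. CD3E, PECAM1, COL1A2 and COL3A1 were on no array. The summed level of the 14 was 3.22 to 3.25 in siCONT mock and 3.57 to 3.71 in siUHRF1 TSA. Whether these changes bear on the neuronal genes was not tested.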

How the data were processed

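Total RNA of DLD1 cells was hybridised to 8 Agilent arrays of 1 colour, 2 per group. Per the file headers, the scans were read with Agilent Feature Extraction 10.7.3.1, and the deposited intensity of a spot is the processed signal of that program, with the local background already subtracted. The authors name GeneSpring for their own analysis, and their normalisation is not given in the sources used here. The deposited value table held the same intensity to within a ratio of 0.995 to 1.00 and served as an alternative.

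Control spots and outlier flags were left out and spots of a probe averaged. The log2 intensity minus the 75th percentile of the array was fitted with group means in limma 3.58.1 (R 4.3.3, residual degrees of freedom 4, prior 2.17), 2-sided, with Benjamini-Hochberg adjustment over all probes tested. A probe entered a test if the pair of arrays of 1 or more of the groups compared (any of the 4 for the interaction) had it well above background, and was called at an adjusted p below 0.05 and a change of at least 2-fold. Where neither array of a group had a probe above background, the fold is a lower bound, written "at least". Since nothing states separate cultures for the siCONT arrays, p-values measure the spread between arrays, which may be technical, and the number of arrays limits the precision. Summaries were made in python 3.11.15.

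The members and gene lists were chosen with earlier results of these data known. Values were given for REST, UCHL1, CEND1, every member called in at least 1 of 6 comparisons, the 3 members found in all groups with the smallest change for the combination, and up to 4 called genes per list with the largest change for the combination. ENO2, RCOR2, MAP2, TUBB3 and CPE were named after their values were seen, and some genes that the rule names are not reported here. Of the 67 probes, 66 had an accession in RefSeq, each with the same symbol. Promoters are from RefSeq (GRCh38.p14) and probe positions (hg19) from the array files. Alternatives covered scaling, background correction, the filter on dim probes, the source of the values, the count of siCONT samples, the methods' t-test, blocks, several probes per gene and each array left out.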

Additional observations from a re-analysis of the deposited data

Results flagged for a closer look

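For 8 members the effect of UHRF1 depletion differed between TSA and mock in the limma fit (effect under TSA minus effect under mock, log2). The difference was 6.87 ± 0.21 (SE) for UCHL1 (adjusted p = 0.000469), 5.19 ± 0.54 for CHGA (0.0144), 4.02 ± 0.66 for CEND1 (0.0316) and 3.70 ± 0.22 for DPYSL5 (0.00476). It was smaller for RAB3A at 1.60 ± 0.20 (0.0195), STX1A at 1.54 ± 0.31 (0.0456), MAPT at 1.49 ± 0.24 (0.0302) and SYT11 at 1.41 ± 0.23 (0.0299). UCHL1, CHGA and DPYSL5 were below background in the other groups, and CEND1 and SYT11 on all mock arrays, so the size of these 5 differences depends on the level of the background. UHRF1 was also depleted further under TSA than under mock, and whether this bears on the differences was not tested.

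The genes reached this difference from different sides. RAB3A, MAPT and STX1A were detected on all arrays, and TSA alone changed them by -2.71, -0.58 and 0.06, against -1.11, 0.91 and 1.60 in depleted cells. None of the 8 differences passed with the siCONT arrays as 1 sample, where the adjusted p was 0.106 for UCHL1, 0.190 for DPYSL5, 0.200 for CHGA and CEND1, and 0.396 to 0.501 for the others. With the array number as a replicate block within each siRNA arm none of the 8 passed (adjusted p 0.0561 for UCHL1, 0.0567 for DPYSL5, 0.0579 for CHGA and STX1A, 0.0754 at most for the others). UCHL1 and DPYSL5 passed when any 1 array was left out. CHGA was lost without either siCONT mock array, and CEND1 without array 1 of any group or array 2 of siCONT TSA. MAPT and RAB3A were lost without any 1 siCONT array, and STX1A and SYT11 without any 1 siCONT array or array 1 of siUHRF1 TSA.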

How the results depend on the processing

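No called change of a member reversed under any of the 20 settings run, and the calls of UCHL1, CEND1 and CHGA in siUHRF1 TSA against each other group held in every setting in which they were tested. The counts of called members moved more. As deposited and scaled to the 75th percentile they were 2 for UHRF1 depletion under mock, 11 for the combination, 4 for TSA in siCONT, 12 for UHRF1 depletion under TSA, 13 for TSA in depleted cells and 8 for the interaction. Normexp background correction gave 1, 7, 7 and 6 for UHRF1 depletion under mock, the combination, UHRF1 depletion under TSA and TSA in depleted cells. Probes above background on all arrays, which leave fewer genes to test, gave 1, 4, 5 and 5 for the same comparisons and 4 for the interaction. No filter on dim probes gave 4 for the interaction. With the siCONT arrays as 1 sample, limma gave 0 for UHRF1 depletion under mock (2 at an unadjusted p below 0.05), 2 with TSA in siCONT, 5 for UHRF1 depletion under TSA and 0 for the interaction (10 unadjusted). Leaving out 1 array gave 0 to 4 for UHRF1 depletion under mock, 7 to 13 for UHRF1 depletion under TSA and 2 to 12 for the interaction. Apart from settings whose construction is named here, the cause was not tested.

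Arrays of the same number shared deviations with r from -0.06 to 0.34 over 19898 probes. The 0.34 is that of the siUHRF1 arms, whose numbers name the same siRNAs, while across arms the numbers were not taken to pair the arrays. A replicate block gave 5 for the interaction and moved no other count. A replicate block within siRNA arm, with 2 residual degrees of freedom, gave 0 for the interaction (14 unadjusted) and 2, 5, 11, 11 and 12 for UHRF1 depletion under mock, TSA in siCONT, the combination, the TSA groups and TSA in depleted cells. The methods' t-test gave 2 for UHRF1 depletion under mock and was not run for the interaction.

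Signs turned only for changes that were not called. With the 75th percentile over detected probes the change for the combination was 0.0165 for CPLX2, 0.0176 for VAMP2 and 0.11 for REST. With 1 array left out, REST changed by -0.57 to 0.15 for UHRF1 depletion under mock and STMN3 by -0.63 to 0.077 for the combination. Centring on the array median shifted the median change of all genes for the combination from -0.14 to -0.54, and the 75th percentile over detected probes shifted it to 0.10. A gene below background has only a bound, so changes smaller than the gap to background were not measurable for the 22 members found on no array.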

Other observations

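Among the REST corepressor genes, RCOR2, a member of the CoREST family, moved with both agents and was picked out after its values were seen. It measured -0.78 and -0.47 in siCONT mock, 1.11 and 0.39 in siUHRF1 mock, -2.56 and -2.87 in siCONT TSA, and -0.87 and -0.54 in siUHRF1 TSA. The siUHRF1 arrays lay above the siCONT arrays under each agent, without overlap. In limma, UHRF1 depletion changed RCOR2 by 1.38 ± 0.28 under mock (SE, adjusted p = 0.0397) and by 2.01 ± 0.28 under TSA (0.00934), TSA changed it by -2.09 ± 0.28 in siCONT (0.00296), and the combination by -0.08 ± 0.28 (0.831). With siCONT as 1 sample the first 3 of these did not pass (0.416, 0.129 and 0.0958).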
